A study of Homo sapiens with 8 samples.

Results

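The genes described here are the Wnt ligands, their receptors and the core genes of the Wnt pathway. They were chosen by symbol, with earlier results of these data known. The rule took every numbered WNT and FZD gene and DKK1 to DKK4. It also took symbols for co-receptors, cytoplasmic transducers, nuclear factors, receptor turnover, ligand secretion and the antagonist SFRP1. This gave 55 of the 23368 symbols in the count table, of which 46 had enough reads to be tested. The study measured total RNA by stranded RNA-seq in HEK293F, a suspension-adapted line derived from human embryonic kidney cells, after the level of MOV10 had been lowered or raised. MOV10 is an RNA helicase that binds messenger RNAs and takes part in silencing and decay. The control group (3 libraries) received an irrelevant siRNA and the knockdown group (2 libraries, numbered 2 and 3) a MOV10 siRNA, each in repeated rounds a day apart. The overexpression group (3 libraries) received a myc-tagged MOV10 plasmid in 1 transfection. A library from cells given an empty plasmid was not analysed here. In every comparison with the overexpression group, the effect of MOV10 and that of the delivery therefore cannot be told apart. Whether the libraries of one group are separate cultures is not labelled, and the p-values therefore cover only the spread among these 8 libraries.

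Wnt proteins are lipid-modified ligands. The acyltransferase PORCN adds the lipid, the carrier WLS takes the ligand to the cell surface, and Frizzled (FZD) receptors bind it there together with the co-receptors LRP5 and LRP6. Without a ligand, a complex of AXIN, APC and the kinases GSK3A and GSK3B marks β-catenin, the product of CTNNB1, for destruction. With a ligand, Dishevelled proteins (DVL1 to DVL3) recruit AXIN to the receptor, β-catenin accumulates, and in the nucleus it joins the TCF and LEF factors at target genes such as AXIN2. Part of the control lies at the protein level, which RNA counts do not show, and in bulk RNA fewer cells expressing a gene and less RNA per cell cannot be told apart.

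The libraries held 12.7 M to 32.8 M counted reads, and the 55 genes took 0.252 to 0.283% of them in each library. MOV10 stood at 76.8, 76.4 and 91.2 CPM in the controls (CPM is a read count scaled to a fixed library size, here with TMM factors, which assume most genes do not change). It read 2971, 2916 and 2454 CPM with overexpression, plasmid reads included, and 50.6 and 55.5 CPM with knockdown. The log2 fold changes were 5.10 ± 0.08 (SE) and -0.62 ± 0.08, so the labels hold and the knockdown was partial. All 10 marker genes fixed for HEK293-type cells were expressed. Their summed level was 1328 to 1355 CPM in controls, 1241 to 1285 CPM with overexpression and 1579 to 1658 CPM with knockdown, without overlap. With overexpression 3 were called higher and 2 lower, beside 25.2% and 24.1% of all tested genes. With knockdown 4 were called higher and 2 lower, beside 19.9% and 19.1%. Fibroblast markers summed to 66.5 to 71.8 CPM in controls, 68.2 to 76.0 CPM with overexpression and 51.6 to 53.5 CPM with knockdown, with COL1A2 and THY1 near 0. The sum is mostly COL1A1. Of the 6 tested markers, 4 (COL3A1, DCN, LUM and PDGFRA) were called higher and 0 lower with overexpression, by edgeR also at an unadjusted p under 0.05, with 3 and 0 by DESeq2 and a median log2 fold change of 0.73. With knockdown 1 was called higher and 1 lower. Over all tested genes 25.2% were called higher with overexpression, and 6 markers are too few for a share of their own. These 4 markers moved in the same direction as the overexpression rises described below, while the summed level, mostly COL1A1, overlapped the controls. Their part in the results was not tested.

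The highest levels were those of cytoplasmic genes and WLS, and ligands were among the lowest. Per kilobase of exon in the controls, GSK3A stood highest (51.0 ± 2.23 CPM per kb, SD, n = 3), followed by CTNNB1 (36.0 ± 0.602), WLS (31.7 ± 2.34), DVL1 (27.97 ± 1.04) and DVL3 (27.0 ± 1.12). DVL1 and DVL3 were within their spread of each other. Measured per kilobase of the longest transcript instead, CTNNB1 came first at 87.8 and GSK3A second at 59.7 CPM per kb, and 8 of the 10 highest genes were shared. All 10 Frizzled receptors were present, from 3.28 CPM per kb for FZD9 to 12.8 for FZD7. WNT5A, a ligand best known for β-catenin-independent signalling, made up 35.7% of all ligand CPM per kb in the controls, 34.2% with overexpression and 40.1% with knockdown. With WNT11 and WNT5B, ligands of similar use, it made up 69.3%, 71.4% and 78.2%. Of the 9 genes that could not be tested, 7 were ligands (WNT1, WNT2, WNT7A, WNT8A, WNT9B, WNT10A and WNT16, with 3 to 53 reads in all 8 libraries together) and 2 were antagonists (DKK2 with 33 reads and DKK4 with 1). For a gene with no read in a group, counting error alone allows up to 0.0526 CPM in the controls, 0.0518 with overexpression and 0.0575 with knockdown (3 reads over the group's total).

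**Figure D1:**
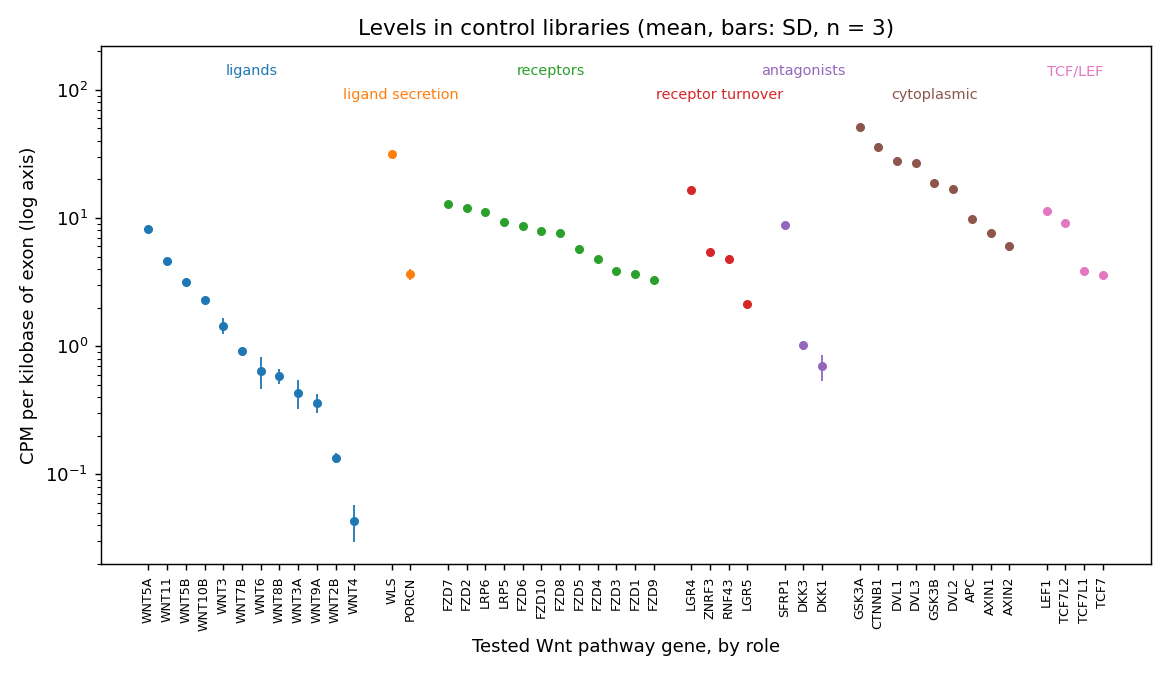
Mean level of each of the 46 tested Wnt pathway genes in the control libraries, in CPM per kilobase of exon on a log axis, grouped by role, with bars for the SD over 3 libraries. GSK3A (51.0), CTNNB1 (36.0) and WLS (31.7) stand highest, and among ligands WNT5A stands at 8.28.

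A gene was called changed at an adjusted p under 0.05 by the quasi-likelihood F test of edgeR, with p-values adjusted by Benjamini-Hochberg over all 15254 genes tested. With MOV10 overexpression, 14 of the 46 genes were called higher and 8 lower. The 14 include WNT4, which reached the read filter through its treated libraries only and so had to be higher there. Over all tested genes 25.2% were called higher, 24.1% lower and 49.2% either way, against 47.8% of the Wnt genes, so the share called was near the background. With knockdown, 7 were called higher and 8 lower, or 32.6%, where the background was 19.9% higher, 19.1% lower and 39.0% either way. In the direct comparison of overexpression with knockdown, 14 genes were higher and 10 lower with overexpression (52.2%). The background there was 29.3% higher, 28.1% lower and 57.4% either way. WNT8B, among the 8 lower with knockdown and the 14 higher in the direct comparison, reached the read filter through groups where it was higher. The median log2 fold change of the Wnt genes was 0.12 with overexpression and -0.02 with knockdown, beside 0.01 and -0.00 over all tested genes. Most changes were small: 14 of the 22 called with overexpression and 8 of the 15 called with knockdown moved by less than 0.4 on the log2 scale. The comparisons with control share their control libraries, so values for both are set side by side. Called in both and higher were CTNNB1, LRP5 and WNT11, called in both and lower were FZD10 and WNT7B, and DKK3 was called in opposite directions. LRP5 lost its call in 4 of the 6 fits that left out a library of the overexpression comparison and in 4 of the 5 of the knockdown comparison.

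The knockdown counts rest partly on 1 library. Without knockdown replicate 2, 4 genes were called higher and 2 lower, and APC, GSK3B, DKK3, LRP5, WLS, WNT3, WNT5A, WNT8B and WNT10B were no longer called, while CTNNB1, FZD6, LEF1, WNT11, FZD10 and WNT7B were. Scaling by library totals alone gave 5 higher and 10 lower with knockdown and 20 higher and 7 lower in the direct comparison. An offset for base composition and transcript length gave 13 and 8 with knockdown and 9 and 13 in the direct comparison. The balance of higher and lower calls therefore moved with the scaling.

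**Figure D2:**
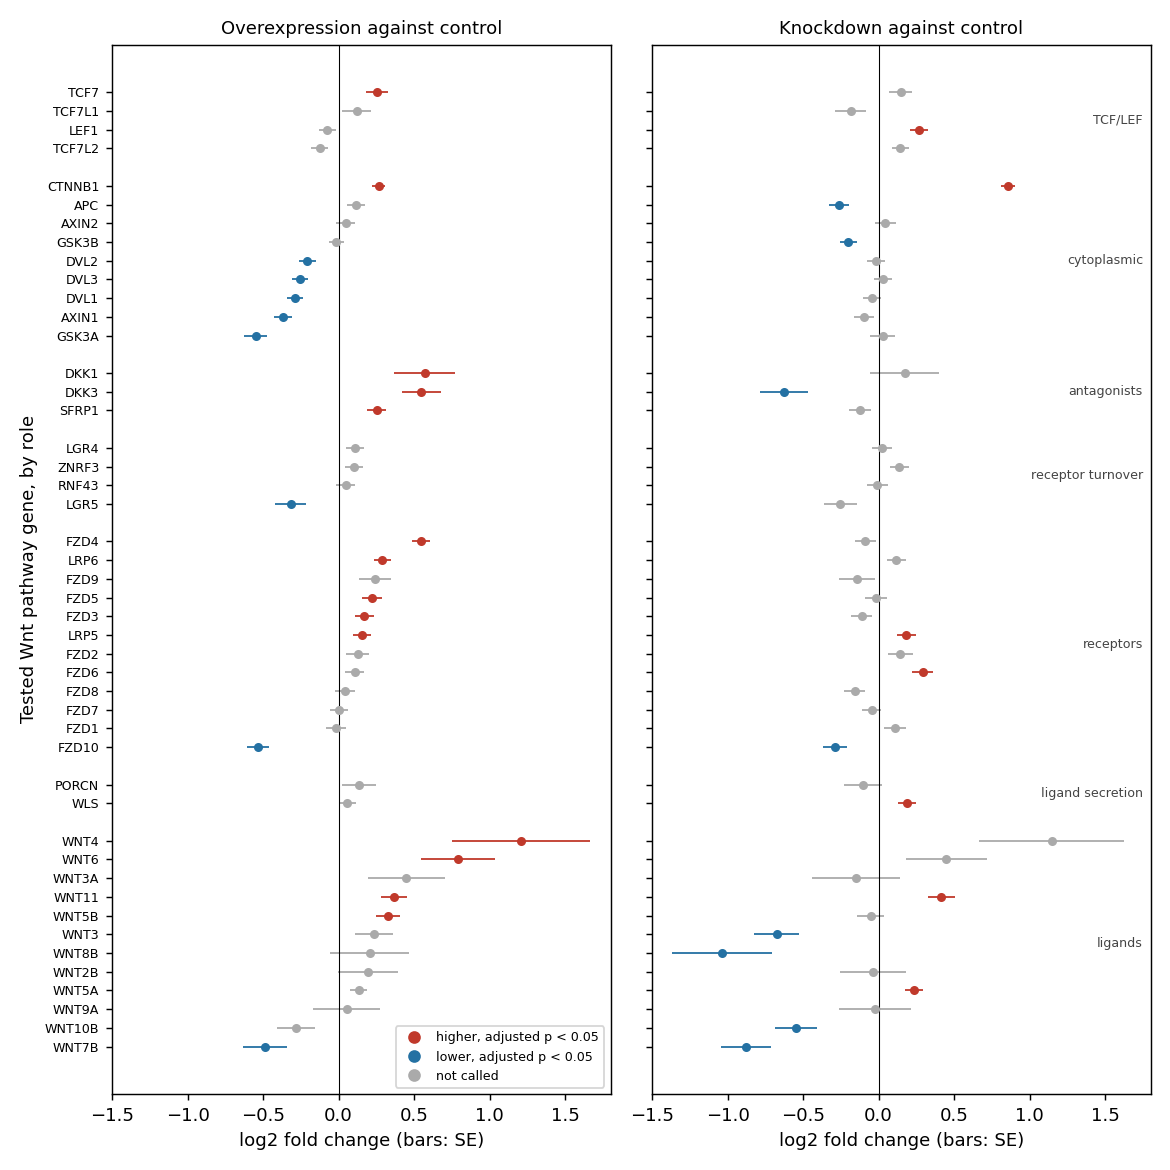
Log2 fold change against control (points, with bars for SE) of each of the 46 tested Wnt pathway genes, with overexpression on the left and knockdown on the right, coloured by call. CTNNB1 stands out on the right at 0.86, and 5 of the 9 cytoplasmic genes lie to the left of 0 and are called with overexpression. Over all tested genes 24.1% were called lower with overexpression.

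In the cytoplasm, β-catenin RNA rose in both treatments, most with knockdown, while the Dishevelled genes, AXIN1 and GSK3A fell with overexpression. CTNNB1 stood at 437, 427 and 423 CPM in the controls, 518, 494 and 535 CPM with overexpression, and 799 and 756 CPM with knockdown. The 3 groups did not overlap. It rose 1.81-fold with knockdown (log2 0.86 ± 0.05, 95% interval 0.76 to 0.96, adjusted p = 7.94e-11) and by a smaller amount with overexpression (log2 0.26 ± 0.04, adjusted p = 5.26e-05), and it was lower with overexpression than with knockdown by a log2 difference of -0.59 ± 0.05 (adjusted p = 6.13e-09). It was the only 1 of the 7 genes called higher with knockdown to pass a test against a fold of 1.2.

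GSK3A, a kinase that phosphorylates β-catenin for destruction, read 219, 201 and 211 CPM in the controls, 152, 160.2 and 117 CPM with overexpression, and 219.95 and 209 CPM with knockdown. All 3 overexpression libraries lay below every other library, with replicate 3 the lowest. It fell to 0.684 of the control level with overexpression (log2 -0.55 ± 0.08, adjusted p = 6.32e-06), and by -0.43 without overexpression replicate 3. With knockdown the difference was 0.03 (interval -0.14 to 0.20). Its partner kinase GSK3B read 156, 158 and 147 CPM in the controls, 157, 144 and 156 CPM with overexpression, and 134 and 133.5 CPM with knockdown, the lowest of all. It had -0.01 with overexpression (adjusted p = 0.827) and fell by 0.20 with knockdown (adjusted p = 0.00721). GSK3B was no longer called when either knockdown library was left out.

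The other members of the destruction complex moved separately. The scaffold gene AXIN1 read 57.3, 56.8 and 56.4 CPM in the controls, 42.3, 47.1 and 42.3 CPM with overexpression, and 51.1 and 55.7 CPM with knockdown. The overexpression libraries were the lowest. AXIN1 fell with overexpression (log2 -0.37 ± 0.06, adjusted p = 4.24e-05) and had -0.09 with knockdown (adjusted p = 0.262). The scaffold gene APC read 119.6, 127 and 121 CPM in the controls, 136, 120.1 and 143 CPM with overexpression, and 98.5 and 106 CPM with knockdown. The knockdown libraries were the lowest, and the overexpression libraries overlapped the controls. APC fell by 0.26 ± 0.07 with knockdown (adjusted p = 0.00373, and 0.103 without knockdown replicate 2) and had 0.11 with overexpression (interval -0.01 to 0.24). AXIN2, a negative regulator that is also a widely used readout of β-catenin activity, read 30.4, 32.4 and 31.5 CPM in the controls, 31.5, 33.7 and 32.2 CPM with overexpression, and 32.2 and 32.6 CPM with knockdown. The groups overlapped. Its intervals were -0.08 to 0.18 with overexpression and -0.10 to 0.19 with knockdown, so CTNNB1 RNA differed between groups where AXIN2 RNA was not shown to differ.

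The Dishevelled genes, which relay the receptor signal, all fell with overexpression. Over all tested genes 24.1% were called lower there, and 3 genes are too few for a share of their own. The log2 fold changes were -0.29 ± 0.05 for DVL1 (adjusted p = 0.000149), -0.21 ± 0.05 for DVL2 (adjusted p = 0.00347) and -0.25 ± 0.05 for DVL3 (adjusted p = 0.000634). DVL3, for example, read 174, 164 and 178 CPM in the controls and 138, 156 and 137 CPM with overexpression, without overlap. With knockdown their log2 fold changes lay between -0.04 and 0.03, and none was called (unadjusted p over 0.05 for all 3, and none by DESeq2). None of the 3 passed the test against a fold of 1.2 with overexpression.

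Base composition moved with these calls. The 8 Wnt genes that fell with overexpression had a median GC content of 59.3% in the longest transcript, against 51.7% for the 14 that rose and 52.4% for the 24 not called. Over all tested genes the medians were 51.8% for those that fell, 46.8% for those that rose and 47.7% for the rest. With the offset for composition and length, the overexpression count was 13 higher and 10 lower. GSK3A (-0.55), AXIN1 (-0.40) and DVL3 (-0.24) were still called lower under that offset, while the receptor FZD3 went from 0.17 to -0.036.

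The promoters of CTNNB1, the gene with the largest called change of the cytoplasmic genes in knockdown, and of GSK3A, that in overexpression, are printed with that of DKK1 because TCF and LEF factors bind the words CTTTGAA and CTTTGAT, and a promoter can be read for them. The sequences are RefSeq's on GRCh38.p14, from 250 bases before to 50 after the gene start, read 5′ to 3′ on the gene's strand, with such a word in capitals. They lie at chr3:41199255-41199554 on the plus strand, chr19:42242553-42242852 on the minus strand and chr10:52314031-52314330 on the plus strand.
CTNNB1: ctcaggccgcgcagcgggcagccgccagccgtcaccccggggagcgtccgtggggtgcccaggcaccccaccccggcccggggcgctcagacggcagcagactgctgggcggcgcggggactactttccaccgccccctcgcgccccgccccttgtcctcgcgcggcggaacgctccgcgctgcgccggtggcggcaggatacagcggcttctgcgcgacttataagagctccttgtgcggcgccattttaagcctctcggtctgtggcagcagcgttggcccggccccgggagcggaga
GSK3A: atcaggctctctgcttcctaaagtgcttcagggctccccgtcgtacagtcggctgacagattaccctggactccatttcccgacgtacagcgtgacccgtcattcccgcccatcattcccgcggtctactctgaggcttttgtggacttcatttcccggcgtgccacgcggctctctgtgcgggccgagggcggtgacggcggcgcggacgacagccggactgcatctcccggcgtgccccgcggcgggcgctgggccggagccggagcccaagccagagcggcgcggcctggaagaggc
DKK1: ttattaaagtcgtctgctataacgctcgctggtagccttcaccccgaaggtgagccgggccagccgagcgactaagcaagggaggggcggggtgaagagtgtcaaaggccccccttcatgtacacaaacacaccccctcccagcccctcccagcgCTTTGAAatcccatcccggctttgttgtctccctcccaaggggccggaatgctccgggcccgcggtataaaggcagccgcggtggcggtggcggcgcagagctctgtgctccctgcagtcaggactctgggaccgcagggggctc
Of the 55 genes, 39 had an entry, with 49 promoters. Searched on both strands, 1 of the 49 (2.04%) held a word, that of DKK1, with CTTTGAA starting 95 bases before the start. A word was held by 6.86% of the 35116 promoters of all genes. The median GC content was 67.0% for the Wnt promoters and 58.7% for all. The shares describe the letters of these windows only.

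Of the 5 secreted antagonists 3 could be tested, and DKK1, DKK3 and SFRP1 were each called higher with overexpression. Over all tested genes 25.2% were called higher there, and 3 genes are too few for a share of their own. With knockdown DKK3 was called lower. DKK3, a divergent member of the Dickkopf family, read 5.14, 4.71 and 5.54 CPM in the controls, 7.79, 7.79 and 6.52 CPM with overexpression, and 2.89 and 3.93 CPM with knockdown. The 3 groups did not overlap, and DKK3 was the only gene of the 46 called in opposite directions in the comparisons with control. It rose by 0.55 ± 0.13 with overexpression (adjusted p = 0.00135) and fell by 0.63 ± 0.16 with knockdown (adjusted p = 0.00368, and 0.182 without knockdown replicate 2). Overexpression against knockdown gave 1.18 ± 0.15 (adjusted p = 1.31e-06).

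DKK1, which blocks LRP5 and LRP6, was low, at 1.15, 1.86 and 1.60 CPM in the controls, 2.38, 2.24 and 2.07 CPM with overexpression, and 1.65 and 1.81 CPM with knockdown. All 3 overexpression libraries lay above all others. It rose by 0.57 ± 0.20 with overexpression (adjusted p = 0.0253), but this was not called by DESeq2 (adjusted p = 0.111) or without control replicate 1 (0.37, adjusted p = 0.183). In all, DKK1 lost that call in 2 of 6 fits with a library left out. SFRP1, a Frizzled-like protein that binds Wnt ligands, read 42.1, 42.1 and 40.9 CPM in the controls, 46.02, 48.9 and 55.2 CPM with overexpression, and 37.5 and 39.3 CPM with knockdown. The 3 groups did not overlap. SFRP1 rose by 0.25 ± 0.07 with overexpression (adjusted p = 0.00326) and had -0.12 with knockdown (adjusted p = 0.195).

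**Figure D3:**
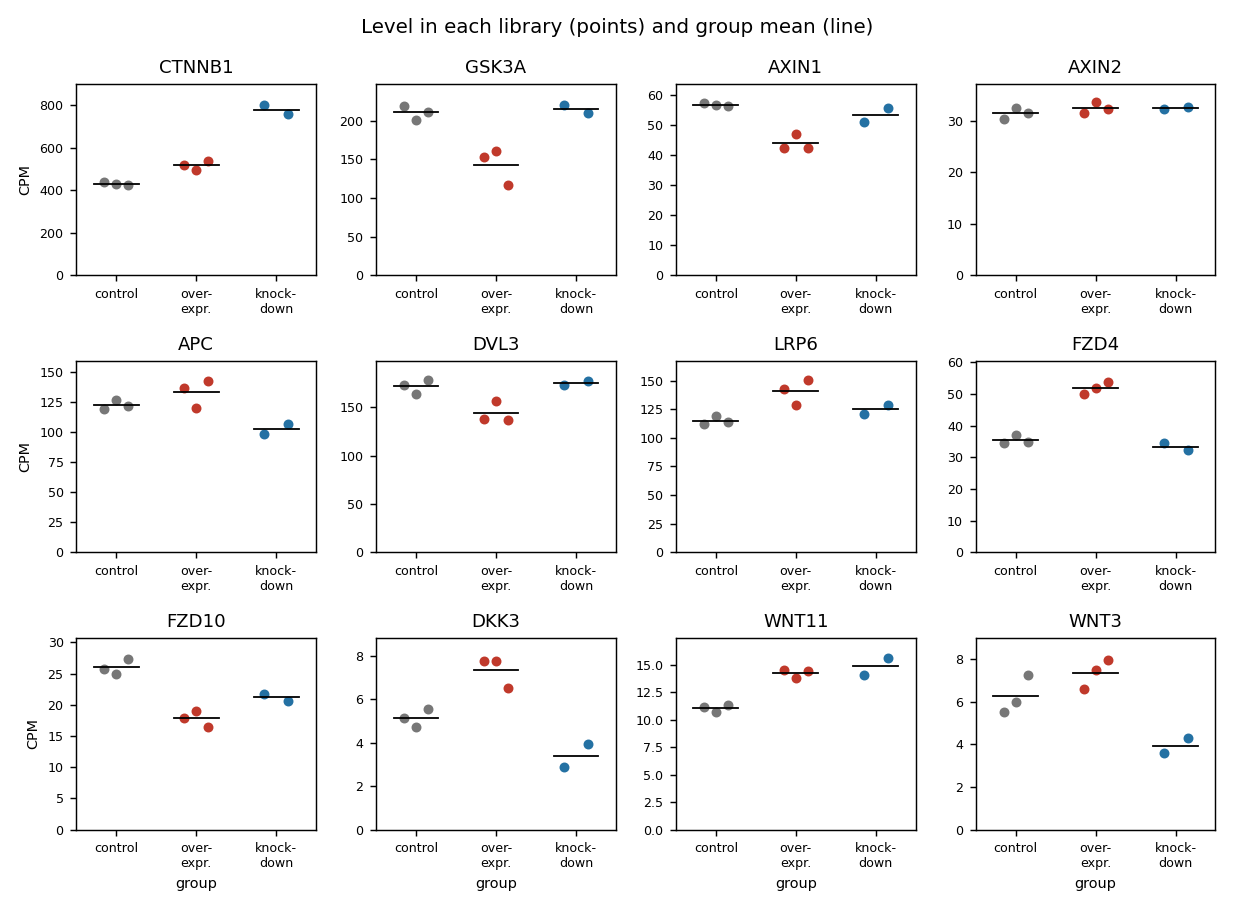
Level in CPM of 12 Wnt pathway genes in each library (points), with the group mean as a line, for the controls, overexpression and knockdown. The knockdown libraries of CTNNB1 (799 and 756) lie above all others, the overexpression libraries of GSK3A (152, 160.2 and 117) and FZD10 (17.9, 19.03 and 16.5) below all others, and AXIN2 overlaps in all groups.

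Among receptors, 5 of 12 rose and 1 fell with overexpression, and 2 rose and 1 fell with knockdown. The shares called, 50% and 25.0%, were near the 49.2% of all genes with overexpression and below the 39.0% with knockdown. FZD4, a receptor for several Wnts and for norrin, read 34.5, 36.9 and 34.9 CPM in the controls, 49.9, 51.8 and 53.8 CPM with overexpression, and 34.3 and 32.2 CPM with knockdown. Only the overexpression libraries stood apart. It rose 1.46-fold with overexpression (log2 0.55 ± 0.06, adjusted p = 4.42e-07) and had -0.09 with knockdown (adjusted p = 0.334). In the current annotation 18.9% of its exon bases overlap PRSS23 on the opposite strand, and the strand setting of the counting is not given. PRSS23 had 0.21 ± 0.06 with overexpression and -0.73 ± 0.07 with knockdown.

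FZD10 moved the other way, at 25.7, 25.0 and 27.4 CPM in the controls, 17.9, 19.03 and 16.5 CPM with overexpression, and 21.7 and 20.6 CPM with knockdown. The groups did not overlap, with the knockdown libraries between the others. It fell by 0.53 ± 0.08 with overexpression (adjusted p = 7.73e-06) and by 0.29 ± 0.08 with knockdown (adjusted p = 0.00699, and 0.057 without knockdown replicate 3). LRP6, the main co-receptor, read 112, 119 and 114 CPM in the controls, 143, 128.9 and 150.2 CPM with overexpression, and 121 and 129.04 CPM with knockdown. All overexpression libraries were above all controls, and 1 was level with a knockdown library. LRP6 rose by 0.29 ± 0.06 with overexpression (adjusted p = 0.000267) and had 0.12 ± 0.06 with knockdown (adjusted p = 0.142). The other called receptors moved by less than 0.3: FZD5 (0.22), FZD3 (0.17) and LRP5 (0.16) rose with overexpression, and FZD6 (0.29) and LRP5 (0.18) with knockdown. FZD3 and LRP5 overlapped the controls with overexpression, and FZD3 too lost that call in 4 of 6 fits with a library left out (log2 0.13 to 0.24). FZD5 lost it without control replicate 3 (adjusted p = 0.067). FZD6 read 34.2 to 35.6 CPM in the controls, 36.1 to 41.3 CPM with overexpression, and 42.2 and 43.3 CPM with knockdown, without overlap. FZD1, FZD2, FZD7, FZD8 and FZD9 were called in neither comparison with control, by edgeR or DESeq2, with unadjusted p-values under 0.05 for FZD9 with overexpression (0.0351) and FZD8 with knockdown (0.0388).

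Of the 12 tested ligand genes, 2 were called higher and 4 lower (WNT8B among them) with knockdown. With overexpression 4 were called higher (WNT4 among them) and 1 lower. The shares called were 50% with knockdown and 41.7% with overexpression, beside 39.0% and 49.2% of all genes, and 7 of these 11 calls are of ligands under 10 CPM. WNT3, a canonical ligand, read 5.54, 6.01 and 7.28 CPM in the controls, 6.63, 7.52 and 7.98 CPM with overexpression, and 3.58 and 4.31 CPM with knockdown. The knockdown libraries were the lowest. It fell by 0.67 ± 0.15 with knockdown (adjusted p = 0.00134, and 0.067 without knockdown replicate 2), had 0.24 with overexpression (adjusted p = 0.124), and differed by 0.91 ± 0.15 between the treatments (adjusted p = 2.26e-05).

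WNT7B, a ligand studied in kidney and lung development, read 4.48, 4.76 and 4.54 CPM in the controls, 3.29, 3.58 and 2.76 CPM with overexpression, and 2.25 and 2.87 CPM with knockdown. Every treated library was below every control. It fell by 0.49 ± 0.15 with overexpression (adjusted p = 0.00851) and by 0.88 ± 0.16 with knockdown (adjusted p = 0.000266). WNT10B, also canonical, read 6.34, 6.11 and 5.54 CPM in the controls, 5.13, 5.19 and 4.37 CPM with overexpression, and 3.87 and 4.52 CPM with knockdown. Every treated library was again below every control. WNT10B fell by 0.55 ± 0.14 with knockdown (adjusted p = 0.00341, and 0.107 without knockdown replicate 2) and had -0.28 with overexpression (adjusted p = 0.0653).

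WNT8B read 1.06, 1.40 and 1.27 CPM in the controls, 1.46, 1.03 and 1.99 CPM with overexpression, and 0.476 and 0.798 CPM with knockdown. Both knockdown libraries were the lowest, and WNT8B reached the read filter through the libraries of the other groups. The log2 fold change was -1.04 ± 0.33 with knockdown (adjusted p = 0.0175), which supports no fall by itself. The call was lost in 2 of 5 fits with a library left out (log2 -1.36 to -0.63). WNT11, a mostly non-canonical ligand, read 11.2, 10.7 and 11.4 CPM in the controls, 14.5, 13.8 and 14.4 CPM with overexpression, and 14.1 and 15.6 CPM with knockdown. All treated libraries were above all controls. It rose by 0.37 ± 0.09 and 0.42 ± 0.09 (adjusted p = 0.00138 and 0.00118). The most abundant ligand gene rose with knockdown. WNT5A read 60.9, 62.6 and 60.3 CPM in the controls, 69.4, 62.5 and 70.3 CPM with overexpression, and 72.3 and 71.8 CPM with knockdown. Its knockdown libraries were the highest. WNT5A rose by 0.23 ± 0.06 with knockdown (adjusted p = 0.00464, and 0.061 without knockdown replicate 2) and had 0.13 with overexpression (adjusted p = 0.0527). WNT5B read 13.5, 12.9 and 14.8 CPM in the controls, 17.2, 16.7 and 17.6 CPM with overexpression, and 13.3 and 12.97 CPM with knockdown. Only its overexpression libraries stood apart, and it rose by 0.33 ± 0.08 there (adjusted p = 0.00211).

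At low level, WNT6 read 0.798, 1.09 and 1.40 CPM in the controls, 1.54, 2.19 and 1.76 CPM with overexpression, and 1.55 and 1.28 CPM with knockdown. The overexpression libraries were above the controls. It rose by 0.79 ± 0.24 with overexpression (adjusted p = 0.0104) and had 0.45 with knockdown (adjusted p = 0.196). Leaving out a library moved the overexpression value between 0.58 and 0.97, and it was not called without overexpression replicate 2 (adjusted p = 0.066) or control replicate 1 (0.58, adjusted p = 0.086). WNT4, with 60 reads in all, read 0.133, 0.259 and 0.200 CPM in the controls, 0.417, 0.537 and 0.383 CPM with overexpression, and 0.507 and 0.319 CPM with knockdown. All treated libraries were above all controls. WNT4 passed the read filter through its treated libraries only, so its log2 fold change of 1.21 ± 0.46 with overexpression (adjusted p = 0.0341, and 0.151 by DESeq2) is a description and supports no rise. WNT2B, WNT3A and WNT9A were called in neither comparison with control.

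Of the 2 genes of ligand processing, WLS was called with knockdown. It read 143, 131 and 152 CPM in the controls, 145, 153 and 145 CPM with overexpression, and 161 and 163 CPM with knockdown. Its knockdown libraries were the highest, and it rose by 0.19 ± 0.06 there (adjusted p = 0.0149). WLS lost that call in 3 of 5 fits with a library left out (log2 0.13 to 0.23), those without either knockdown library among them. PORCN had adjusted p values of 0.346 and 0.559. Of the 4 TCF/LEF factors, 1 rose with each treatment, and 3 were called in the direct comparison. Over all tested genes 25.2% rose with overexpression, 19.9% rose with knockdown and 57.4% were called in the direct comparison. The 4 factors are too few for a share of their own. LEF1, a β-catenin partner that is itself a target, read 60.4, 61.2 and 60.6 CPM in the controls, 58.7, 59.6 and 54.1 CPM with overexpression, and 74.5 and 71.4 CPM with knockdown. The knockdown libraries stood above all others. It rose by 0.27 ± 0.06 with knockdown (adjusted p = 0.00129) and had -0.07 with overexpression (adjusted p = 0.27). TCF7, another TCF/LEF factor, read 34.8, 35.7 and 38.3 CPM in the controls, 43.6, 46.7 and 37.9 CPM with overexpression, and 39.8 and 40.3 CPM with knockdown. Overexpression replicate 3 lay within the control range. TCF7 rose by 0.25 ± 0.07 with overexpression (adjusted p = 0.00534). TCF7L1 and TCF7L2 were called in neither comparison with control. By edgeR, TCF7L2 had unadjusted p-values of 0.0323 with overexpression (log2 -0.13) and 0.0229 with knockdown (log2 0.14). In the direct comparison TCF7L1 was higher with overexpression (0.30 ± 0.10) and TCF7L2 lower (-0.27 ± 0.06). LGR5, a receptor for R-spondins, read 10.6, 11.7 and 11.4 CPM in the controls, 9.17, 7.92 and 10.4 CPM with overexpression, and 9.16 and 9.78 CPM with knockdown, each treated library below each control. It fell by 0.32 ± 0.10 with overexpression (adjusted p = 0.0145, and 0.101 without overexpression replicate 2). In all, LGR5 lost that call in 2 of 6 fits with a library left out. LGR4 and the receptor-removing ligases RNF43 and ZNRF3 were not called. ZNRF3 had 0.10 with overexpression (interval -0.02 to 0.23) and 0.14 with knockdown (interval 0.004 to 0.27, unadjusted p = 0.0440 by edgeR).

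In the direct comparison of overexpression with knockdown, 24 genes were called (52.2%, beside 57.4% of all tested genes). These groups also differed in delivery, plasmid against siRNA, which cannot be told apart from the level of MOV10. The cytoplasmic genes CTNNB1, GSK3A, AXIN1, DVL1, DVL2 and DVL3 were lower with overexpression, and APC (0.38 ± 0.07, adjusted p = 6.75e-05) and GSK3B (0.18, adjusted p = 0.00746) higher. Among receptors FZD3 (0.28), FZD4 (0.63), FZD5 (0.24), FZD8 (0.20), FZD9 (0.38) and LRP6 (0.17) were higher and FZD6 (-0.19) and FZD10 (-0.24) lower. The ligands WNT3 (0.91), WNT5B (0.38) and WNT8B (1.24) and the antagonists DKK3 (1.18) and SFRP1 (0.37) were higher. The nuclear factors LEF1 (-0.34) and TCF7L2 were lower. WNT8B reached the read filter through groups where it was higher, so its value is a description. FZD8 and FZD9 were called here and not against control. With 1 library left out at a time, 5 fits in all, FZD6 lost its call in 4, FZD8 in 3, and LRP6, TCF7L1 and GSK3B in 2. TCF7L1 and LRP6, both called, overlapped between the groups in single libraries. How many of all called genes overlap in this way was not counted.

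Short 3′ UTR words were read in the Wnt genes because an earlier reading of the same knockdown comparison had brought up 3 of them, AGCAAACA, GTCTGTTA and TGGGTCTT, so they are no independent evidence. They were searched on the transcript strand only, in GENCODE 29 (GRCh38). Of the 46 tested Wnt genes, 7 (15.2%) held a word, against 12.1% of 13694 tested genes with a UTR. A word was held by 2 of the 8 genes called lower with knockdown (25.0%), APC and GSK3B, by 1 of the 7 called higher (14.3%) and by 4 of the 31 not called (12.9%). Their sites, with a site in FZD4, which was not called with knockdown, are shown with the word in capitals.
APC: cagccccttcaAGCAAACAtgccttcaatc
GSK3B: agccctaaccaTGGGTCTTaaaaacagcag
FZD4: taaatactaacTGGGTCTTtcagatagcaa
The words start at base 5976 of the 6483-base UTR of APC, base 3219 of 5465 in GSK3B and base 419 of 5463 in FZD4. A match is only a run of letters and does not mark a bound site.

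Other genes of the pathway were read in lists by role, against a background of 25.2% of all genes called higher and 24.1% lower with overexpression, and 19.9% and 19.1% with knockdown. Of 10 tested membrane regulators, 8 rose and 0 fell with overexpression, and 0 rose and 4 fell with knockdown. The counts by edgeR at an unadjusted p under 0.05 were the same, and DESeq2 gave 8 and 0 with overexpression and 0 and 2 with knockdown. Their median log2 fold change with overexpression was 0.31, where that of all genes was 0.01. SHISA3, an inhibitor that retains Frizzled in the cell, rose by 1.35 ± 0.18 (adjusted p = 3.44e-06) and TPBG, a Wnt inhibitor at the membrane, by 0.38 ± 0.06. GPC4, a glypican, rose by 0.32 ± 0.05 with overexpression and fell by 0.22 ± 0.06 with knockdown.

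Of 9 tested secreted modulators, 3 were called higher and 2 lower with overexpression, and 4 lower and 0 higher with knockdown. At an unadjusted p under 0.05, 4 were lower and 0 higher by edgeR with knockdown, and DESeq2 called 2 lower and 0 higher. SFRP4 rose by 1.76 ± 0.25 with overexpression (adjusted p = 7.37e-06), as did NOTUM, an enzyme that removes the lipid from Wnts, by 0.95 ± 0.22. SOSTDC1, an LRP-binding antagonist, fell by 1.19 ± 0.25 with knockdown (adjusted p = 0.000684). The other genes of these counts, named after their values were seen, were FRZB, a Frizzled-like antagonist, lower with both treatments (-0.73 ± 0.28 and -1.38 ± 0.33), RSPO4, an R-spondin, lower with overexpression (-1.05 ± 0.37), WIF1, a secreted Wnt-binding inhibitor, higher with overexpression (0.75), and SOST (-1.83) and DKKL1 (-1.32), lower with knockdown. RSPO4, SOST and DKKL1, and FRZB for its knockdown fall, reached the read filter through groups where they were higher. Those falls are a description. DESeq2 called none of the list lower with overexpression. All of these were under 4 CPM, and SOST, FRZB, RSPO4 and DKKL1 were under 0.5 CPM in some libraries.

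Of 25 tested genes known as targets of the pathway, 12 rose and 2 fell with overexpression (median 0.21), and 6 rose and 3 fell with knockdown (median -0.01). The list includes 7 of the 55 Wnt genes, and with knockdown its share called was near the 39.0% of all genes. It also repeats NOTUM, APCDD1 and NKD1 from the other lists. The cell cycle gene CCND1 rose by 0.63 ± 0.05 with overexpression, from 86.8, 85.01 and 89.6 CPM in the controls to 129.6, 138 and 136 CPM. JAG1, a Notch ligand, rose by 0.49 ± 0.06 with overexpression and 0.62 ± 0.06 with knockdown.

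Of 18 planar polarity and non-canonical genes, 8 rose and 2 fell with overexpression, and 7 rose and 7 fell with knockdown. The GTPase gene RAC1 rose in both (0.34 ± 0.05 and 0.47 ± 0.05), RHOA fell in both (-0.30 ± 0.04 and -0.24 ± 0.05), and the receptor gene RYK fell with knockdown (-0.44 ± 0.06). Among 26 cytoplasmic regulators, 5 rose and 5 fell with overexpression, and 8 rose and 6 fell with knockdown. CSNK1G2, a casein kinase, fell by 0.41 ± 0.05 with overexpression. Among 23 nuclear co-factors, 3 rose and 9 fell with overexpression, and 6 rose and 5 fell with knockdown. The shares called among these co-factors and regulators are to be read against 49.2% of all genes with overexpression and 39.0% with knockdown. TLE2, a co-repressor, rose by 1.28 ± 0.14 with overexpression, and CREBBP, a co-activator, by 0.50 ± 0.06 with knockdown.

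**Figure D4:**
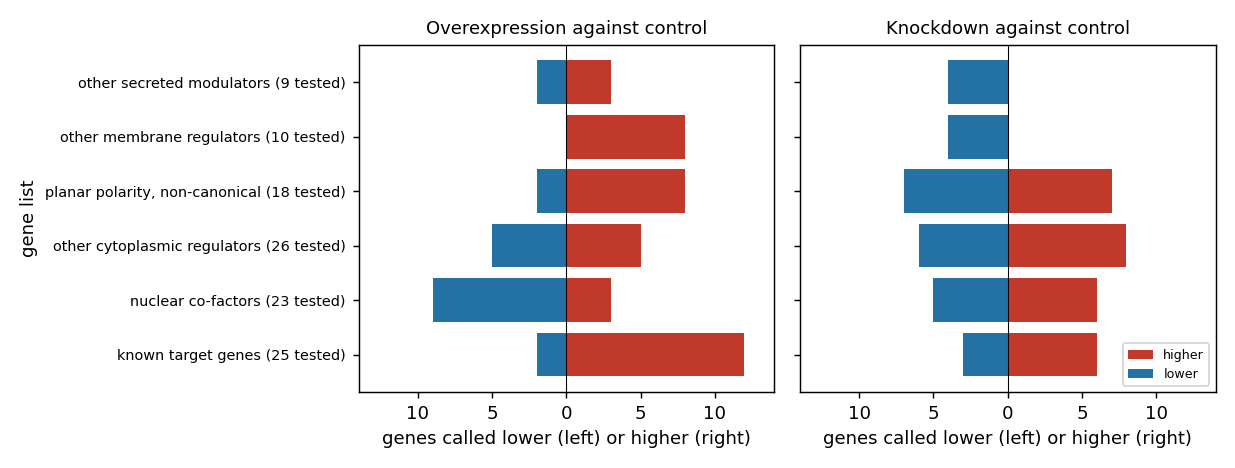
Number of genes called lower (left of 0) and higher (right of 0) against control in 6 lists of Wnt pathway genes, with overexpression on the left and knockdown on the right. The list of known target genes shares genes with the Wnt genes described above and with other lists. Of 10 membrane regulators 8 were called higher and 0 lower with overexpression, and 0 higher and 4 lower with knockdown.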

How the data were processed

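Total RNA of 8 HEK293F libraries was sequenced after a stranded library preparation, per the labels' protocols. Reads were processed with CASAVA 1.8.2, Trimmomatic 0.22, TopHat2 2.0.8, SAMtools 0.1.18, HTSeq 0.5.3p9 and edgeR on hg19, per the submitters' processing notes, which give no role or order; no strand setting or gene annotation is stated there. The deposited values are whole-number read counts per gene symbol, not normalized by the authors. They were tested as deposited with edgeR 4.0.16 in R 4.3.3, with TMM factors and a two-sided quasi-likelihood F test. The 8 libraries were in 1 fit, each group with its own mean. The read filter was filterByExpr with its defaults. It needs about 10 reads in as many libraries as the smallest group has, from any group, and 15 in total. The p-values were Benjamini-Hochberg adjusted over all 15254 genes tested, and an adjusted p under 0.05 was a call. SE is the log2 fold change divided by the root of F, and intervals are at 95%.

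The genes and lists were chosen with earlier results of these data known. Values in every library were given for Wnt genes called against control with an absolute log2 fold change of at least 0.4 and for AXIN2, CTNNB1, LEF1, LRP6, APC and WLS; from other lists, genes were taken from up to 3 with the smallest adjusted p. Lengths, GC content and 3′ UTRs came from GENCODE 29, whose build differs from that of the counts, so these serve for lengths and letters only; promoters came from RefSeq GRCh38.p14. Replicate pairs of a group differed by more than counting noise (1.88 to 8.01 times the variance expected per gene), so each library counted once. Alternatives (limma 3.58.1 voom, DESeq2 1.42.0, other scalings, filters and thresholds, libraries left out, and an offset for GC content and length with mgcv 1.9.3, chosen after seeing the data) are in the closing section. Floors and depth cover counting error only.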

Additional observations from a re-analysis of the deposited data

How the results depend on the processing

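Only 2 knockdown libraries and the low counts of several ligands limit the precision, and the counts of called Wnt genes moved with the threshold and the scaling. With overexpression, 14 higher became 9 at an adjusted p under 0.01, and 2 higher and 2 lower passed a test against a fold of 1.2. With knockdown, that test left 1 higher and 3 lower, a fit of the compared groups alone gave 11 higher, and the offset for GC content and length gave 13 higher. In the direct comparison the fold test left 4 higher and 2 lower, and the offset gave 9 higher. Leaving out 1 library at a time gave 10 to 17 higher and 7 to 9 lower with overexpression, 4 to 7 and 2 to 8 with knockdown, and 6 to 18 and 8 to 11 in the direct comparison, the low ends with knockdown (4 and 2) and of higher calls in the direct comparison (6) being those without knockdown replicate 2. FZD3 with overexpression reversed to -0.036 under the offset; the cause was not tested. Scaling by library totals left 60.1% of all calls higher with overexpression, 39.5% with knockdown and 65.5% in the direct comparison, and the offset 40.0%, 58.9% and 38.9%, against 51.1%, 51.1% and 51.0%. DESeq2 called 10 higher and 8 lower with overexpression, 7 and 7 with knockdown, and 13 and 10 in the direct comparison. Same-numbered libraries did not deviate together (correlations from -0.0847 to 0.0900); with the number as a replicate block the counts were 14 and 8, 7 and 8, and 14 and 9.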
